A study of Rattus norvegicus with 12 samples.

Results

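The miRNAs described here are 18 of the 649 mature miRNAs counted in small RNA libraries of rat gastric mucosa. They are all rows whose name belongs to miR-9a, miR-124, miR-128, miR-129, miR-137, miR-138, miR-218a or miR-218b, families known as neuronal and read here for the nerves of the stomach wall. Of these 8 families, 7 had rows, and no row carried the name miR-218b. The members were chosen by name, not by their values.

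The study compared 3 groups of 4 libraries each. The normal rats received no MNNG and no formula. The model rats had chronic atrophic gastritis, in which gastric glands are lost, after 24 weeks of MNNG (N-methyl-N'-nitro-N-nitrosoguanidine, a mutagen) at 180 µg/ml in water drunk freely, gavage of 2% sodium salicylate at 1 ml per 100 g, and 2 days of full feeding followed by 1 day without food. The XLHZ rats had this same exposure and also 60 days of XLHZ, the Xianglianhuazhuo formula, a herbal preparation. The sources used here give neither strain nor age. They do not say whether each library is its own animal, so the p-values reflect only how these libraries vary, and that variation may be technical.

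As background, the enteric nervous system is a network of neurons and glia in the gut wall. Its myenteric plexus lies between the layers of the outer muscle and its submucosal plexus lies under the mucosa. A miRNA hairpin gives up to 2 mature arms, named 5p and 3p, and each arm finds target mRNAs mainly through its seed, bases 2 to 8 from the 5′ end. miR-124 is the classic neuron-restricted miRNA, miR-9 acts in neural progenitors and neurons, and miR-137 and miR-138 act at synapses and dendritic spines. miR-218 is abundant in motor neurons, but its hairpins sit in the axon-guidance genes Slit2 and Slit3, which other cells also use. miR-128 and miR-129 are abundant in brain and are also made outside it.

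The mature sequences of 8 of the 9 most counted members are shown so that their seeds can be compared, with miR-129-1-3p added for its overlap with miR-129-2-3p. They are from RefSeq (GRCr8), matched for 16 of the 18 members (all but miR-124-3p and miR-124-5p), and the seed is in capitals, 5′ to 3′.
rno-miR-9a-5p: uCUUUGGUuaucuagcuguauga
rno-miR-9a-3p: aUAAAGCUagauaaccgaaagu
rno-miR-137-3p: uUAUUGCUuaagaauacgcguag
rno-miR-138-5p: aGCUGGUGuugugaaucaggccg
rno-miR-218a-5p: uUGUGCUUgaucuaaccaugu
rno-miR-128-3p: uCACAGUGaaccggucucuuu
rno-miR-129-5p: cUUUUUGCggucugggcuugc
rno-miR-129-2-3p: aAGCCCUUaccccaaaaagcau
rno-miR-129-1-3p: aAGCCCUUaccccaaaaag

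Among these 9 sequences 1 seed was shared, by the 3p arms of miR-129-1 and miR-129-2. The 19 bases of miR-129-1-3p are identical to the first 19 of the 22 bases of miR-129-2-3p, so their counts are uncertain with respect to each other. They differed widely, with 101 counts of miR-129-1-3p and 6087 of miR-129-2-3p over the 12 libraries. Several members come from more than 1 locus and their counts cannot be divided between loci. The RefSeq table lists 3 loci for miR-9a and 2 each for miR-128-3p, miR-129-5p, miR-138-5p and miR-218a-5p. By position in the same annotation, the miR-218a hairpins lie within Slit2 and Slit3, which encode secreted axon-guidance proteins, and the miR-128 hairpins within R3hdm1 and Arpp21.

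The libraries held 9095260 to 11556061 counts, and the 18 members together took 0.106% to 0.182% of them. No mRNA was measured, so no neuronal mRNA marker could check the nerve label, and in bulk samples fewer cells of a type and less miRNA per cell cannot be told apart. Model libraries 2 and 3 had the highest shares of miR-143-3p, a smooth muscle miRNA, at 29.2% and 25.1% of their counts. The other 10 libraries had 9.39% to 22.98%, and the highest of these, XLHZ library 2, was near model library 3.

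The members fell into an abundant and a scarce set. Levels are CPM, counts per 1000000 scaled with TMM factors over the 12 libraries (mean ± SD, n = 4). In normal mucosa miR-128-3p (324 ± 46.1 CPM) and miR-9a-5p (316 ± 65.2) were the most abundant and did not differ beyond their spread. They were followed by miR-137-3p (131 ± 30.7), miR-218a-5p (125 ± 31.8) and miR-138-5p (108 ± 27.6), which also lay within each other's spread. miR-129-2-3p (53.8 ± 9.26) and miR-129-5p (42.3 ± 9.54) came next, with overlapping libraries, and then miR-9a-3p (22.9 ± 4.11). The neuron-restricted miR-124-3p was low, at 2.89 ± 0.668 CPM, and by its mean over all libraries it lay above 49.1% of the miRNAs in the joined table. Mature miRNAs are close in length, but their capture differs with sequence in library preparation, so an order between miRNAs is approximate. The other 9 members had at most 18 counts in any library. Among them miR-128-2-5p was seen as 1 count in 1 library and miR-218a-1-3p as 1 count in each of 3 libraries.

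The arms of the hairpins were unequal in most families. miR-9a-5p took 92.3% to 93.7% of the miR-9a counts of a library, and the 5p arm of miR-218a took 99.5% to 99.9%. The 3p arm took 99.9% or more of miR-128 counts and 99.8% or more of miR-137 counts. The miR-129 family was split instead, with 41.2% to 61.4% in miR-129-2-3p and 37.3% to 58.3% in miR-129-5p.

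**Figure D1:**
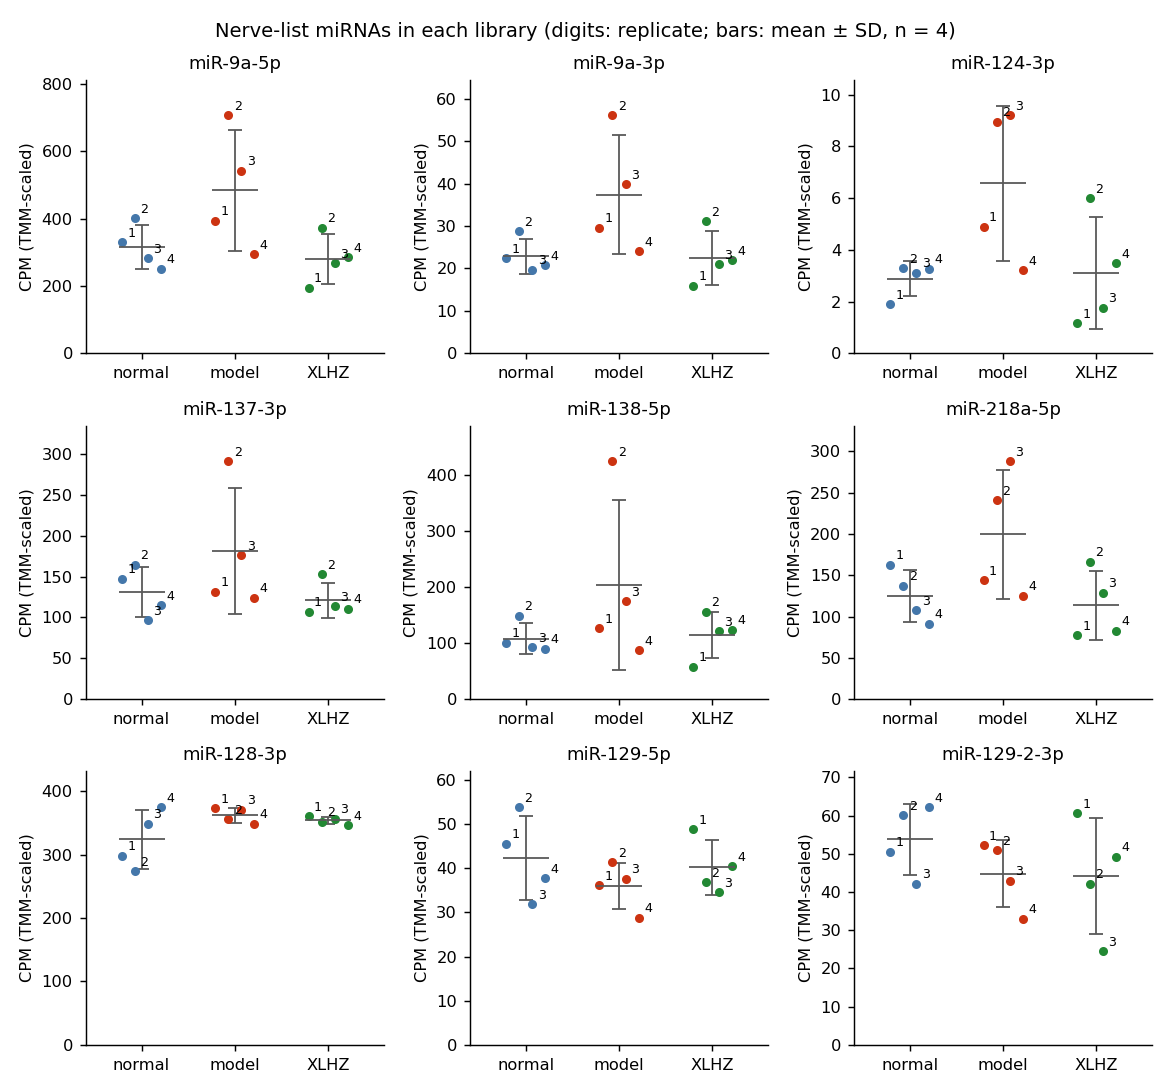
Level of the 9 most counted members in each library (vertical axis, CPM with TMM factors; digits are replicate numbers, bars the mean ± SD of 4 libraries). Model libraries 2 and 3 are the highest of all 12 for the upper 6 miRNAs, and the groups overlap in every panel.

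The dominant arm of miR-9a was highest in model libraries 2 and 3. rno-miR-9a-5p had 3309, 4516, 3167 and 2989 counts in normal libraries 1 to 4, 3939, 6460, 5063 and 3487 in model libraries 1 to 4, and 2019, 3849, 2865 and 3365 in XLHZ libraries 1 to 4. Model libraries 1 and 4 lay among the normal ones, and XLHZ library 1 was the lowest of all. In CPM the group means were 484 ± 179 in the model and 280 ± 73.1 with XLHZ. The minor arm rno-miR-9a-3p followed the same order of groups, with 224, 325, 221 and 247 counts in normal, 296, 513, 372 and 284 in model and 165, 322, 225 and 259 in XLHZ libraries. Its groups overlapped as well.

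rno-miR-124-3p was counted in every library but rarely. It had 19, 37, 35 and 39 counts in normal libraries 1 to 4, 49, 82, 86 and 38 in model libraries, and 12, 62, 19 and 41 in XLHZ libraries. At these counts the exact 95% Poisson interval, which covers counting error only, was 6.20 to 20.96 for the lowest library, XLHZ 1, and 68.8 to 106 for the highest, model 3. In CPM, XLHZ libraries 1 and 3 lay below all 4 normal libraries and XLHZ libraries 2 and 4 above all 4.

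The synapse-associated miR-137-3p and miR-138-5p rested more on a single library. miR-137-3p had 1476, 1854, 1084 and 1374 counts in normal, 1318, 2667, 1645 and 1472 in model and 1107, 1580, 1224 and 1306 in XLHZ libraries. miR-138-5p had 1009, 1681, 1046 and 1074 counts in normal, 1266, 3889, 1635 and 1033 in model and 600, 1612, 1309 and 1462 in XLHZ libraries. Model library 2 was the highest for both miRNAs. In that library the level of miR-138-5p was 425 CPM, against 58.0 to 175 CPM in the other 11 libraries.

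For rno-miR-218a-5p, which is known from motor neurons but whose source here was not tested, model library 3 was the highest. The counts were 1631, 1550, 1208 and 1087 in normal, 1441, 2205, 2693 and 1479 in model and 802, 1717, 1383 and 978 in XLHZ libraries. The normal libraries spread from 91.3 to 163 CPM, a span that holds 2 of the 4 model libraries and 1 of the 4 XLHZ libraries.

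miR-128-3p and the miR-129 arms behaved differently from these 6. miR-128-3p had 2985, 3089, 3919 and 4465 counts in normal, 3730, 3258, 3466 and 4125 in model and 3731, 3629, 3829 and 4090 in XLHZ libraries, a ratio of 1.37 between the highest and the lowest CPM of all 12 libraries. The same ratio was 3.62 for miR-9a-5p and 7.33 for miR-138-5p. miR-129-5p had 456, 607, 358 and 450 counts in normal, 361, 378, 352 and 341 in model and 505, 380, 372 and 478 in XLHZ libraries. miR-129-2-3p had 506, 678, 474 and 741, then 523, 466, 402 and 391, then 627, 435, 263 and 581 counts in the same groups. Neither arm was highest in model library 2 or 3.

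The first comparison asked whether these miRNAs differed between atrophic and normal mucosa, and none passed. Of the 18 members 10 had enough counts to be tested, and 0 of 10 passed at an adjusted p under 0.05 in edgeR's quasi-likelihood test with Benjamini-Hochberg adjustment over 403 miRNAs, of which 0.248% passed. DESeq2 and limma-trend also called 0 members. At an unadjusted p under 0.05, 2 of 10 had a higher fitted level, against 4.22% of all miRNAs tested, and 0 a lower one, against 2.98% (7.2% in either direction). These were miR-124-3p, at 1.17 on the log2 scale (SE 0.37, adjusted p = 0.498 in edgeR), and miR-9a-3p, at 0.70 (SE 0.28, adjusted p = 0.605). The values of miR-138-5p, miR-218a-5p, miR-9a-5p and miR-137-3p were 0.91 (SE 0.45), 0.67 (SE 0.31), 0.61 (SE 0.28) and 0.46 (SE 0.30). miR-128-3p had 0.16, miR-129-5p -0.24, miR-129-2-3p -0.26 and miR-129-1-3p -0.35. Fitted values were above 0 for 7 of 10 members and below 0 for 3, against 49.1% and 50.9% of all miRNAs tested, and the median was 0.54, against -0.0072 over all. The members are not separate observations. Pairs of miR-9a-5p, miR-9a-3p, miR-124-3p, miR-137-3p, miR-138-5p and miR-218a-5p had a Spearman's rho of 0.657 to 0.944 over the libraries. For 0 of 10 members did the model libraries all lie above the normal ones, against 1.74% of all miRNAs, and for 0 of 10 all below, against 2.48%.

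The members' difference moved with model libraries 2 and 3. Because these are the highest for 6 members, leaving them out lowers those members' model means in any case. Without both, which earlier results of these data had named as apart and which are also the highest for 6 members, miR-9a-5p was at 0.15 on the log2 scale (SE 0.22), miR-218a-5p 0.14 (SE 0.25) and miR-138-5p 0.0077 (SE 0.26). miR-124-3p kept 0.50 (SE 0.33, adjusted p = 0.754 in edgeR) and the median of the 10 tested members was 0.073. Without model library 2 alone that median was 0.21, and without model library 3 alone it was 0.52. Scaling to library totals shifted the median over all miRNAs to -0.12 and gave 0.38 for the members.

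The second comparison asked whether MNNG-exposed mucosa differed with and without XLHZ, and no member passed here either. Of the 18 members 10 were tested, and 0 of 10 passed in edgeR, against 0.249% of 402 miRNAs, and 0 with DESeq2 or limma-trend. At an unadjusted p under 0.05, 3 of 10 had a lower fitted level, against 3.23% of all miRNAs, and 0 a higher one, against 0.995% (4.23% in either direction). They were miR-9a-5p, with a log2 fold change of -0.80 (SE 0.30), miR-9a-3p, with -0.74 (SE 0.31), and miR-218a-5p, with -0.82 (SE 0.35), each with an adjusted p of 0.729 in edgeR. miR-124-3p had -1.08 (SE 0.53), miR-138-5p -0.83 (SE 0.49) and miR-137-3p -0.59 (SE 0.29). miR-138-2-3p had -0.37, miR-128-3p -0.052, miR-129-2-3p -0.046 and miR-129-5p 0.14. Fitted values were below 0 for 9 of 10 and above 0 for 1, against 49% and 51% of all miRNAs tested, and the median was -0.67, against 0.0057 over all. As in the first comparison the members are not separate observations, and miR-9a-5p and miR-9a-3p come from the same hairpins. The libraries of the groups overlapped for all 10 members, while 0.995% of all miRNAs lay wholly higher and 0.249% wholly lower with XLHZ. This comparison shares its 4 model libraries with the first, so opposite signs in the 2 comparisons are not independent of each other.

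Without model libraries 2 and 3 the values of the same 6 members were nearer 0 in the second comparison. These are the highest libraries for those members, so leaving them out by itself lowers the model mean in both comparisons. The second shift is thus no separate finding. miR-9a-5p was at -0.35 on the log2 scale (SE 0.26), miR-218a-5p -0.29 (SE 0.32) and miR-124-3p -0.43 (SE 0.60), and that of miR-138-5p turned to 0.061 (SE 0.38). The median over the 11 members then tested was -0.13. Without model library 2 alone the median of the tested members was -0.21. Scaling to library totals shifted the median over all miRNAs to 0.17 and gave -0.47 for the members, with 7 of 10 below 0.

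The third comparison set XLHZ-treated, exposed mucosa against normal mucosa, and the members' median there was the nearest to 0 of the 3. Of the 18 members 9 were tested, and 0 of 9 passed in edgeR, against 1.5% of 401 miRNAs (0.998% higher and 0.499% lower), and 0 with DESeq2 or limma-trend. At an unadjusted p under 0.05 there were 0 of 9 members, against 8.73% of all miRNAs (5.24% higher and 3.49% lower). The groups overlapped for all 9, while 3.49% of all miRNAs lay wholly higher and 2.99% wholly lower with XLHZ. The log2 fold changes ran from -0.31 (SE 0.27) for miR-129-2-3p to 0.095 (SE 0.12) for miR-128-3p, with -0.20 (SE 0.22) for miR-9a-5p, -0.16 (SE 0.28) for miR-218a-5p and 0.073 (SE 0.47) for miR-124-3p. Fitted values were above 0 for 3 of 9 members and below 0 for 6, against 49.1% and 50.9% of all miRNAs. The median was -0.10, against -0.0040 over all miRNAs, and with 1 library left out it ran from -0.28 (without XLHZ library 2) to 0.023 (without normal library 2). It was -0.19 without normal library 3 and 0.0033 without XLHZ library 1. For miR-124-3p the standard error is far larger than the value, so a value near 0 does not show equal levels.

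**Figure D2:**
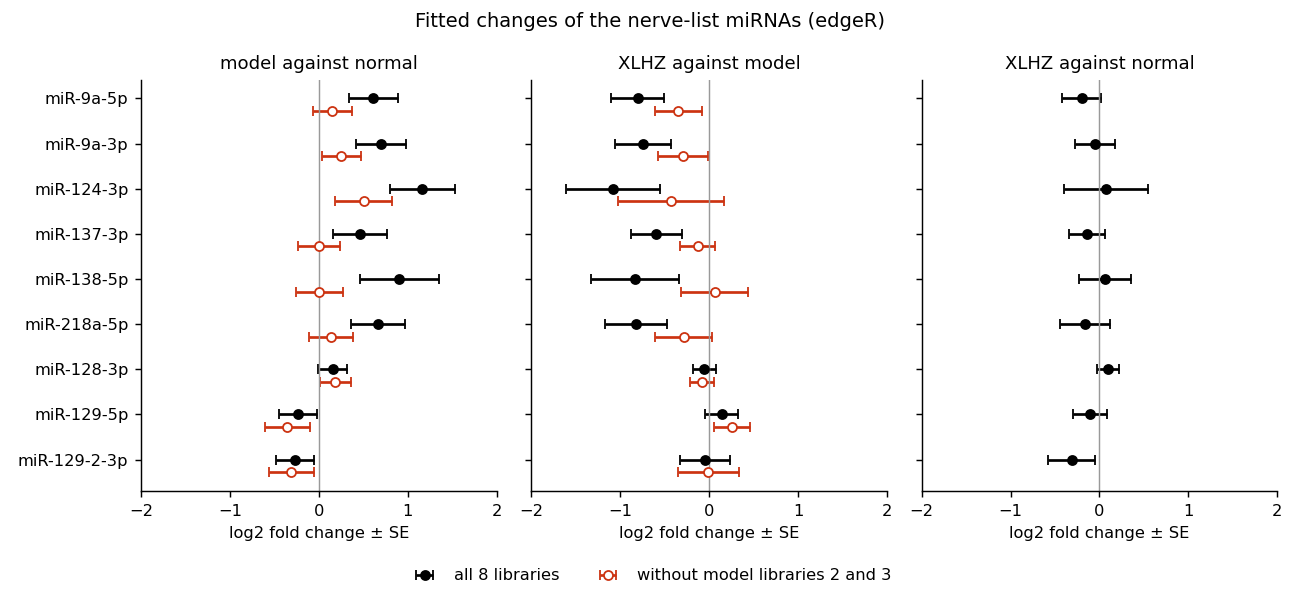
Log2 fold change ± SE (horizontal axis, edgeR) of the 9 most counted members in the 3 comparisons; filled points use all 8 libraries and open points leave out model libraries 2 and 3. In the left and middle panels the upper 6 miRNAs lie nearer 0 without these libraries, as miR-138-5p does at 0.0077 in place of 0.91. These are their highest libraries, so leaving them out by itself lowers the model mean.

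Across libraries, 6 members (miR-9a-5p, miR-9a-3p, miR-124-3p, miR-137-3p, miR-138-5p and miR-218a-5p) had the same extreme libraries as the smooth muscle miRNAs. Those of miR-128-3p and the miR-129 arms differed. For each of these 6, model libraries 2 and 3 ranked first and second of the 12, in either order, and XLHZ library 1 ranked last or, for miR-137-3p, 11th. The same libraries were the 2 highest and the lowest by the smooth muscle score, the mean log2 CPM of the miR-143 and miR-145 arms. The summed smooth muscle level ran from 133247 to 219379 CPM in normal, 145152 to 403505 in model and 97611 to 277213 in XLHZ libraries. That of 8 miRNAs listed as striated muscle ran from 6186 to 9765, from 6810 to 23508 and from 4531 to 12780.0 CPM. Most of that sum was miR-1b, with means of 7430, 13935 and 7320 CPM, and the type of muscle was not tested. Not every striated muscle miRNA had these extremes. miR-499-5p was at 110 and 117 CPM in model libraries 2 and 3, below its 146 to 149 CPM in normal libraries. The part of muscle content in the members' differences between groups was not tested by these values.

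Likeness was measured by Spearman's rho of log2 CPM over the 12 libraries, among 411 to 413 partner miRNAs, as a description with no test. All points share their libraries' depth and scaling. The 5 miRNAs most like miR-218a-5p were all muscle miRNAs: miR-1b (rho 0.986, Pearson's r 0.968), miR-143-3p (0.979, r 0.955), miR-133a-3p (0.979), miR-133a-5p (0.972) and miR-143-5p (0.972). Without model libraries 2 and 3 the rho with miR-143-3p was 0.976. Its rho with the nerve-list miRNAs was lower, at 0.860 with miR-9a-5p and 0.657 with miR-124-3p. Its libraries were thus ordered almost as those of the muscle miRNAs, and a neuronal source of it could not be checked here.

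The miR-9a arms were near both muscle and nerve-list miRNAs. miR-9a-5p was most like miR-145-5p (rho 0.909, r 0.947), miR-133b-3p (0.895), miR-137-3p (0.895), miR-323-3p (0.888) and miR-145-3p (0.881). miR-9a-3p was most like miR-137-3p (0.916, r 0.926), miR-323-3p (0.916), miR-139-5p (0.895), miR-133a-3p (0.881) and miR-218a-5p (0.881). The arms of miR-9a had a rho of 0.944 with each other.

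miR-124-3p had no muscle miRNA among the 5 most like it. These were miR-28-5p (rho 0.867, r 0.883), miR-9a-3p (0.853), miR-139-5p (0.853), miR-138-5p (0.839) and miR-9a-5p (0.797), so 3 of the 5 were nerve-list members. miR-143-3p ranked 30th, with a rho of 0.657 that was 0.418 without model libraries 2 and 3. Muscle miR-133a-3p ranked 15th, with a rho of 0.706 (r 0.842) that was 0.491 without them. The rho of the 5 nearest partners fell too, to between 0.661 and 0.770. Whether miR-124-3p was nearer to nerve-list than to muscle miRNAs was not tested.

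Markers of epithelium, endocrine cells and endothelium had negative values with miR-9a-5p. Epithelial miR-200b-3p had a rho of -0.266, endocrine and gastric miR-375-3p -0.378 and endothelial miR-126a-3p -0.797. All CPM are shares of a library. miR-338-3p, an oligodendrocyte and Schwann cell miRNA, had a rho of 0.846 with miR-9a-5p, and measured 256 ± 56.01 CPM in normal, 427 ± 113 in model and 267 ± 68.2 in XLHZ libraries. Its model libraries all lay above the normal ones, but it did not pass (adjusted p of 0.53, 0.729 and 0.977 in edgeR for the 3 comparisons in order). The other tested glial miRNAs were scarce: miR-219a-5p had log2 fold changes of 0.017 and 0.26 in the first and second comparison, and miR-219a-1-3p -0.68 and 0.34. The median over the 3 tested of 5 glial rows was 0.017 in the first comparison and 0.26 in the second, and none passed in edgeR.

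**Figure D3:**
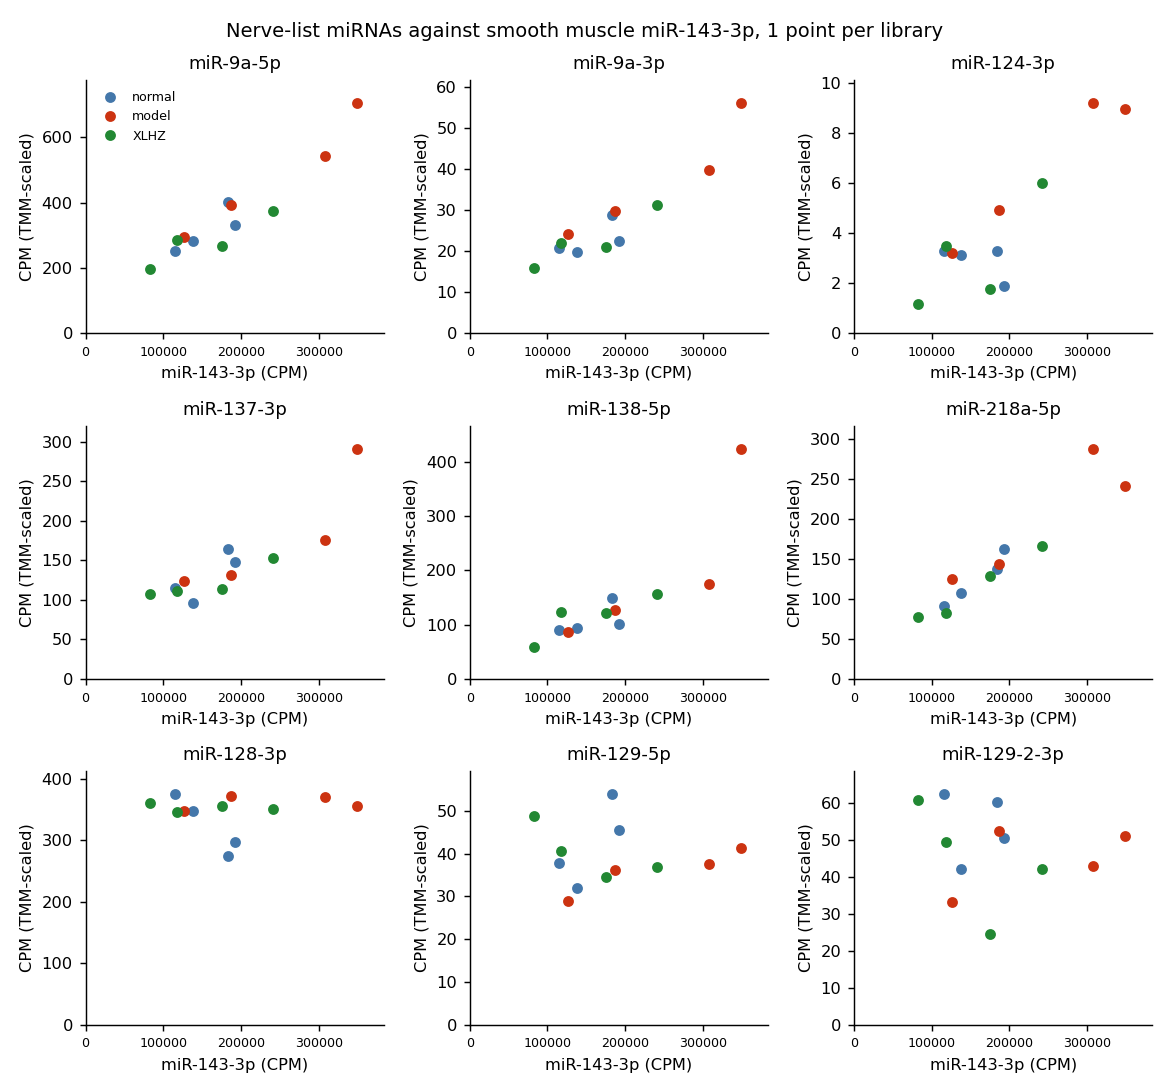
Level of each of the 9 most counted members (vertical axis, CPM) against miR-143-3p (horizontal axis, CPM), 1 point per library, coloured by group. The upper 6 miRNAs are higher where miR-143-3p is higher, miR-218a-5p with a rho of 0.979, while miR-128-3p has a rho of -0.0699.

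Of the members, miR-9a-5p, miR-124-3p and miR-218a-5p were set against muscle miRNAs of the same library, and none of the 3 ratios passed between groups. The ratio of miR-9a-5p to the summed counts of the 4 miR-143 and miR-145 arms was 1506 to 1897 per 1000000 in normal, 1521 to 2031 in model and 1339 to 2059 in XLHZ libraries. The model was 1.01 times normal (log2 difference 0.020, exact two-sided permutation p = 0.886, adjusted p = 0.966 over 12 ratio tests). XLHZ was 0.931 times the model (exact permutation p = 0.629, adjusted p = 0.838). Without model libraries 2 and 3 the log2 differences of model against normal were 0.14 for miR-9a-5p and 0.49 for miR-124-3p. A ratio within a library does not depend on the scaling between libraries, and 4 against 4 libraries cannot give a p below 0.0286. A single ratio at that p would have an adjusted p of 0.343 over 12 tests, and 7 of the 12 would have to reach it for any to pass, so a missed threshold here says little.

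The values of the other ratios are given under the same limit. miR-218a-5p had 651 to 743 per 1000000 in normal, 597 to 862 in model and 599 to 795 in XLHZ libraries, with exact permutation p of 0.514, 0.286 and 0.543 for model against normal, XLHZ against model and XLHZ against normal. miR-124-3p had 8.88 to 24.9 per 1000000 in normal, 22.34 to 25.98 in model and 9.11 to 25.4 in XLHZ libraries. Its ratio was 1.45 times normal in the model (log2 difference 0.54, exact permutation p = 0.114, adjusted p = 0.571) and 0.676 times the model with XLHZ (exact permutation p = 0.2, adjusted p = 0.571). The 4 model libraries lay close together for this ratio, at a log2 SD of 0.10, against 0.63 in normal and 0.69 in XLHZ libraries.

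The arm ratio of miR-9a spanned a narrow range. There were 12.1 to 14.7 counts of miR-9a-5p per count of miR-9a-3p in normal, 12.3 to 13.6 in model and 11.9 to 13.0 in XLHZ libraries. The means were 13.7 ± 1.17, 12.9 ± 0.616 and 12.5 ± 0.469 (SD, n = 4), and the exact permutation p was 0.257, 0.286 and 0.114 for model against normal, XLHZ against model and XLHZ against normal. Each adjusted p was 0.571 over the 12 ratio tests.

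**Figure D4:**
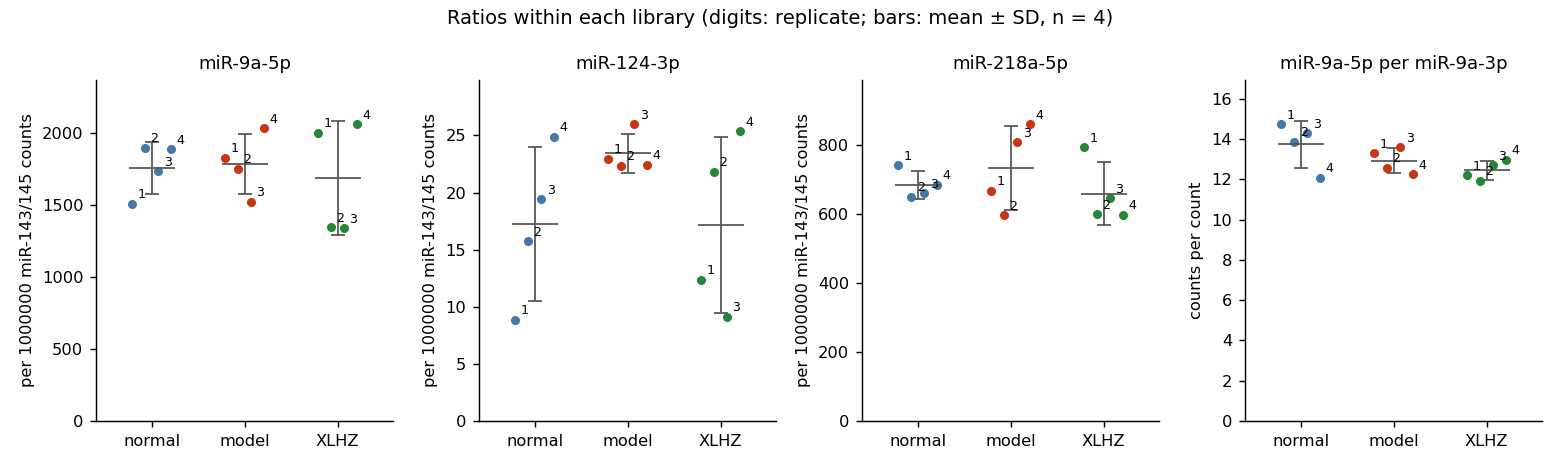
Ratios within each library: miR-9a-5p, miR-124-3p and miR-218a-5p per 1000000 counts of the miR-143 and miR-145 arms, and miR-9a-5p per count of miR-9a-3p (digits are replicate numbers, bars the mean ± SD of 4 libraries). The groups overlap in each panel. The 4 model libraries for miR-124-3p span 22.34 to 25.98, which rests on 38 to 86 counts per library.

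Other miRNAs known from neurons had fitted values on both sides of 0. A list of further neuronal families, among them miR-7, miR-132, miR-134, miR-153, miR-212 and miR-383, had 37 rows, of which 25 were tested in the first comparison. None passed in edgeR in any of the 3 comparisons. In model against normal 11 were fitted higher and 14 lower, against 49.1% and 50.9% of all miRNAs tested, with a median log2 fold change of -0.077. In each direction 1 had an unadjusted p under 0.05, against 4.22% higher and 2.98% lower over all. In XLHZ against model 15 of 24 were fitted higher and 9 lower, against 51% and 49% of all miRNAs, with a median of 0.081. At an unadjusted p under 0.05, 0 were higher and 1 lower, against 0.995% and 3.23% over all. miR-7a-5p, also abundant in endocrine cells, made up most of this list, with 5869 ± 901 CPM in normal, 4658 ± 385 in model and 5539 ± 1201 in XLHZ libraries. miR-132-3p, which responds to neuronal activity, measured 144 ± 23.1, 154 ± 28.4 and 162 ± 22.7 CPM, and miR-153-3p 118 ± 14.7, 107 ± 58.4 and 131 ± 29.4 CPM. The difference between this list and the members was not tested.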

How the data were processed

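Small RNA libraries came from total RNA of gastric mucosa, with the QIAseq miRNA kit, per the labels' protocols. The submitters' processing notes name Bowtie and DESeq. Tool versions, genome build, counting rule and any use of molecular identifiers: not given in the sources used here. Per the file headers, the authors' 2 tables hold raw counts of mature miRNAs, all whole numbers. The deposited CPM columns equal counts per column total (largest difference 5.0e-05) and served for that check. The tables held 639 and 632 miRNAs. Model counts were identical for 621 of the 622 shared, including all 18 members, and the exception, miR-20b-3p, was left out where tables were joined (648 miRNAs).

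Each comparison used its own 8 libraries in edgeR 4.0.16 (R 4.3.3): glmQLFit, glmQLFTest, TMM, filterByExpr with a minimum count of 10, and Benjamini-Hochberg adjustment over all miRNAs tested. SE is the log2 fold change over the square root of F. Ratios added 0.5 counts and used exact permutation. Alternatives were RLE, upper-quartile and total scaling, count filters, DESeq2 1.42.0, limma-trend 3.58.1, all 12 libraries, a replicate block, the smooth muscle score as a covariate, leaving the 5 most abundant miRNAs out of library sizes, and leaving out libraries.

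The members, lists, tests and left-out libraries were chosen with earlier results of these data known. Values per library are given for members with a mean of at least 10 CPM in any group and for miR-124-3p, and likeness was planned for both miR-9a arms, miR-124-3p and miR-218a-5p; that of other members was added after their values were seen. The fit was tested on counts simulated with a common spread for all miRNAs. In the 3 comparisons in order, 65.7%, 67% and 84.8% of 2-fold changes passed, and 100% of 4-fold changes in each. Of unchanged miRNAs 0 of 202, 3 of 201 and 9 of 200 passed. A member changed by 2-fold or less could thus be missed, and so could a member changed by more. In the simulation far more miRNAs were changed than passed in the data, which eases the adjusted threshold. The shares that passed therefore do not carry over to single members. miR-124-3p, with fitted log2 fold changes of 1.17 and -1.08 in the first and second comparison, did not pass. Libraries of a group all differed by more than sampling noise, the lowest chi-square being 172 times its degrees of freedom.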

Additional observations from a re-analysis of the deposited data

Results flagged for a closer look

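The gap test for a library far from the other 3 of its group marked 2 of 45 groups of 4 libraries, and chance marks about 5% of groups. In normal mucosa miR-124-3p was lowest in library 1, at 1.897 CPM, against 3.11 to 3.28 CPM in the other 3 normal libraries; this rests on 19 counts, with an exact 95% Poisson interval of 11.4 to 29.7. In XLHZ-treated mucosa miR-137-3p was highest in library 2, at 153 CPM, against 107 to 114 CPM in the other 3 XLHZ libraries.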

How the results depend on the processing

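The count of members that passed was 0 in each comparison under every alternative run, each library left out in turn included. The lowest adjusted p of any member was 0.103, without model library 4, in the first comparison. The count over all miRNAs in that comparison was 1, and 2 with upper-quartile factors, library totals or at least 50 counts in 4 libraries, 3 with no count filter, 4 with all 12 libraries in 1 fit, 5 with DESeq2 and 4 without model library 4. In the second it fell from 1 to 0 with the smooth muscle covariate and without model libraries 2 and 3, model library 1, 2, 3 or 4, or XLHZ library 1 or 4. In the third it was 6, and 8 with DESeq2, 7 with no count filter, 5 with the replicate block or at least 50 counts, 2 with all 12 libraries, and 4 to 7 with 1 library left out (4 without normal library 2 or 4 or XLHZ library 3). Of 566 member fold changes under alternatives 542 kept their direction and 24 turned. No member was called, so no called result could turn.

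Turned values in the first comparison were -0.00089 for miR-137-3p without model libraries 2 and 3 and a range of -0.67 to 0.0086 for miR-129-1-3p with 1 library left out. In the second they were 0.12 for miR-128-3p and 0.16 for miR-129-2-3p on library totals, 0.00058 for miR-129-2-3p with no count filter, and, with the covariate and without model libraries 2 and 3, 0.21 and 0.57 for miR-138-2-3p and 0.074 and 0.061 for miR-138-5p; miR-129-2-3p ran from -0.24 to 0.13 with 1 library left out. In the third they were -0.15 and -0.0015 for miR-124-3p and miR-138-5p with limma-trend, and -0.00018 for miR-124-3p with the covariate. With 1 library left out the ranges in the third were -0.47 to 0.35 for miR-124-3p, -0.19 to 0.036 for miR-129-5p, -0.26 to 0.097 for miR-9a-3p, -0.12 to 0.30 for miR-138-5p and -0.41 to 0.0033 for miR-218a-5p. Ratios to smooth muscle, in log2, ran from -0.051 to 0.094 for miR-9a-5p in the first comparison, and from -0.32 to 0.24 for miR-124-3p and -0.19 to 0.018 for miR-9a-5p in the third. The cause of these turns was not tested.

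Same-numbered libraries did not deviate together in every pair (correlations of -0.342 to 0.474), so the numbers are not taken as pairs. In both comparisons with the model, numbers 2 and 3 matched their own number best and 1 and 4 did not. In the third, 2 and 4 did. A pairing by number is therefore not excluded. With the replicate block miR-9a-5p had 0.56 in the first comparison and -0.77 in the second (adjusted p of 0.598 and 0.312 in edgeR), miR-124-3p turned to -0.11 in the third, and 0 members passed. With the smooth muscle covariate the members' median was 0.082 in the first and -0.14 in the second comparison. With 1 library left out no ratio passed in the exact permutation test. The lowest adjusted p was 0.171, for the miR-124-3p ratio in the first comparison and the miR-9a arm ratio in the third. As with all libraries, a missed threshold in these ratio tests says little.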

Other observations

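The 3 abundant members with low or negative rho to miR-143-3p had other neighbours across the 12 libraries, described here without a test. miR-128-3p was most like miR-489-3p (rho 0.748, r 0.315), with miR-132-3p next (rho 0.657, r 0.651), and none of its first 5 partners was a muscle miRNA. miR-129-2-3p was most like miR-324-5p (rho 0.860, r 0.702), and the endocrine and gastric epithelial miR-375-3p ranked 8th of 411 for it (rho 0.748, r 0.502) and 13th for miR-129-5p (rho 0.601, r 0.428). For miR-9a-5p miR-375-3p ranked 321st of 412. The summed level of miR-375 and miR-148a ran from 18606 to 27095 CPM in normal, 6847 to 19092 in model and 17192 to 23452 in XLHZ libraries.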
